A study of Mus musculus with 2 samples.

Results

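The constitutive proteasome subunits are the 31 genes that encode the standard 20S core (Psma1 to Psma7 and Psmb1 to Psmb7) and most of the 19S cap (Psmc1 to Psmc6 and 11 Psmd genes), without the interferon-inducible replacements. They were chosen by symbol, and all 31 were found among the 32285 genes of the matrix. Their RNA was read in tumor cells of NMM, an NRAS-mutated mouse melanoma line grown in Rag-/- mice, which lack T and B cells of their own. The labels list 18 tumors, 6 in each of 3 conditions: Mix PBS, Mix + T and the condition called Ag-GAS + T. The design text speaks of tumors exposed in the animal to T cells or to PBS as control. All tumors were digested, stained with hashtag antibodies, pooled, and sorted for CFP+ cells, which the labels call bystander tumor cells. The dose, timing and source of the T cells, the age of the mice and what Ag-GAS and Mix stand for are not stated in the labels.

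Only 1 gene expression library was made from the pool, and the labels tie no hashtag to a condition. Conditions were therefore neither compared nor inferred, and no test was made. Cells are described as a pool and by hashtag pair. Of the 45 possible combinations of 2 of the 10 hashtags, 18 held at least 15 cells; each may be 1 tumor, which the labels do not state. Intervals on counts cover counting error only and say nothing about the spread between tumors.

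The proteasome is the protease that degrades proteins tagged with ubiquitin. Its 20S core is a barrel of alpha rings, which gate the entrance, and beta rings, in which Psmb5, Psmb6 and Psmb7 carry the catalytic sites. The 19S cap binds the tagged protein, removes the ubiquitin, unfolds the chain with a ring of ATPases and feeds it into the core. After interferon exposure, Psmb8, Psmb9 and Psmb10 can take the places of Psmb5, Psmb6 and Psmb7 in newly built cores, and the activator PA28, encoded by Psme1 and Psme2, can bind the core in place of a cap. Such cores are known for making peptides for MHC class I, and CD8 T cells are a main source of interferon-gamma in tumors.

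Of 20917 barcodes, 1657 had at least 5000 gene UMIs (unique molecular identifiers, each counting 1 captured transcript) and at most 15% mitochondrial UMIs. After 109 barcodes with 3 or more hashtags were left out, 1548 cells remained, whose median was 44536 UMIs and 6016.5 detected genes. Of these, 1426 were in a hashtag pair, with 18 to 245 cells per pair and pair medians of 35144 to 49464 UMIs. The cells lacked most classical pigment cell markers. Of 10 such genes, Tyr, Tyrp1 and Ednrb had no UMI and Mlana had 1. Pax3 was the highest at 32.1 CPM (UMIs per 1000000 gene UMIs), with a UMI in 66.3% of cells, and Mitf stood at 4.07 CPM, in 14.3%. Most of these markers thus do not bear out the melanoma label, and the reason was not tested. Of the 7 fibroblast markers, which summed to 907 CPM, Col3a1 alone stood at 762 CPM. The 7 T cell markers summed to 0.304 CPM and the 7 macrophage markers to 9.03 CPM, with up to 70.6 CPM of the latter in the pair HTO2+HTO5.

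Promoter sequences of the subunits were searched for the letters of known motifs, and no link between motifs and RNA levels was tested. RefSeq promoter windows (GRCm38.p6, 250 bases before to 50 after the start) were matched by symbol for 25 of the 31 genes and for all 5 inducible and PA28 genes. Psmb1, Psmb2, Psmb7, Psmc3, Psmd3 and Psmd7 had no entry. Antioxidant response elements, searched as TGACNNNGC on both strands, are the kind of element bound by Nfe2l1, a transcription factor known for driving proteasome genes. The letters occurred in 4 of 25 constitutive genes and in 12.4% of all 32851 windows. The 4 matches are printed with the motif in capitals, in the direction of the gene.
Psmb5: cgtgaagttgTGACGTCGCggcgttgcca
Psmb6: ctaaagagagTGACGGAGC
Psmc6: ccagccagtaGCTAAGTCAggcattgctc
Psmd12: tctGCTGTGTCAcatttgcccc
They lie at chr14:54618024-54618052 on the minus strand for Psmb5, and on the plus strand at chr11:70525338-70525356 for Psmb6, chr14:45329587-45329615 for Psmc6 and chr11:107479278-107479299 for Psmd12. In Psmc6 and Psmd12 the motif reads on the opposite strand of the gene.

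The letters GCGC, any 2 bases and GCGC, the core of the site of nuclear respiratory factor Nrf1 (a gene distinct from Nfe2l1), occurred in 6 of the 25 constitutive genes and in 6.23% of all windows. The match farthest from the start in each of the 6 genes is shown, with the motif in capitals.
Psma2: ggcccctcttGCGCATGCGCaagggtcaaa
Psma3: tatggtttctGCGCACGCGCgctctctgct
Psma4: tcgcagtcctGCGCACGCGCgggagccata
Psmc4: aagagttactGCGCACGCGCaacatccttg
Psmc5: tttcgcctccGCGCCTGCGCgatagagtga
Psmd14: caggcggcctGCGCGTGCGCtgtgtgctcc
They lie at chr13:14613105-14613134, chr12:70974535-70974564, chr9:54950788-54950817, chr7:28050242-28050271 (minus strand), chr11:106256126-106256155 and chr2:61711604-61711633. A CCAAT box, searched as CCAAT on both strands, was found in 10 of the 25 genes and in 37.4% of all windows. The heat shock element, searched as GAA, any 2 bases, TTC, any 2 bases and GAA, was found in none of the 25 and in 0.603% of all windows.

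The letters TTCNNNGAA of a gamma-activated site occurred in Psmd2 alone of the 25, against 8.30% of all windows, and among the inducible genes in Psmb8, at chr17:34198088-34198116 on the plus strand.
Psmb8: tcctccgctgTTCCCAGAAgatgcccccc
The interferon-stimulated response element, searched as TTTC, any 2 bases and TTTC, occurred in Psmb3 and Psmd4, in Psme1 of the inducible genes, and in 3.44% of all windows. All 6 motifs were searched on both strands, and overlap between different motifs was not removed. A match describes the letters only, since binding was not measured here.

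All 31 subunit genes were abundant. Together they made up 9474 CPM (95% Poisson interval 9452 to 9497), and the share of the 1548 cells with a UMI ran from 94.1% for Psmd3 (95% Clopper-Pearson interval 92.8 to 95.2) to 99.4% for Psma7 (98.9 to 99.7). As proteasome genes are used by every cell type, no cell type that should lack them was available as a background. The 18473 barcodes under 800 UMIs, which are too shallow to count as cells here, had a summed level of 10087 CPM, so these transcripts were also present outside the kept cells. In the 199 barcodes over 15% mitochondrial UMIs, the summed level over non-mitochondrial UMIs was 5822 CPM, against 9738 CPM in kept cells on the same scale.

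The alpha ring stood at 3320 CPM (7 genes) and the beta ring at 2764 CPM (7 genes), so the 20S core held 64.2% of the members' UMIs. The 19S cap held the other 35.8%, with 1181 CPM from the 6 ATPase genes and 2210 CPM from the 11 non-ATPase genes. These are counts of transcript ends, with 1 UMI per captured transcript whatever its length, so they were not divided by length, but capture can differ between genes. Reads from pseudogene copies could not be told apart in these counts.

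Within the alpha ring, Psma7 was the highest of all members at 790 CPM (chromosome 2, 180036374 to 180042433, GENCODE M21 on GRCm38) and ranked 179th of all genes. Psma3 followed at 622 CPM, and Psma6 and Psma1 were the lowest alpha genes at 260 and 273 CPM. In the beta ring, the structural genes Psmb1 (470 CPM), Psmb3 (453 CPM), Psmb2 (411 CPM) and Psmb4 (396 CPM) lay close together. The catalytic genes spread more widely: Psmb5, the chymotrypsin-like subunit (chromosome 14, 54614119 to 54618022), stood at 440 CPM. Psmb6, the caspase-like subunit (chromosome 11, 70525367 to 70527858), stood at 367 CPM. Psmb7, the trypsin-like subunit (chromosome 2, 38588036 to 38644087), had the lowest level of the 14 core genes at 226 CPM.

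Most cap genes lay lower than the core genes. Psmd7, the partner of the deubiquitinase Psmd14 in the lid, was the highest at 402 CPM, whereas Psmd14 itself stood at 189 CPM. The ubiquitin receptor Psmd4 came next at 246 CPM, under every core gene but Psmb7, and the large scaffold subunits Psmd1 and Psmd2 were at 161 and 185 CPM. The lowest members were Psmc1, an ATPase (chromosome 12, 100110154 to 100123405), at 117 CPM, and Psmd3 at 125 CPM. The other 5 ATPase genes ranged from 171 CPM (Psmc4) to 241 CPM (Psmc6).

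**Figure D1:**
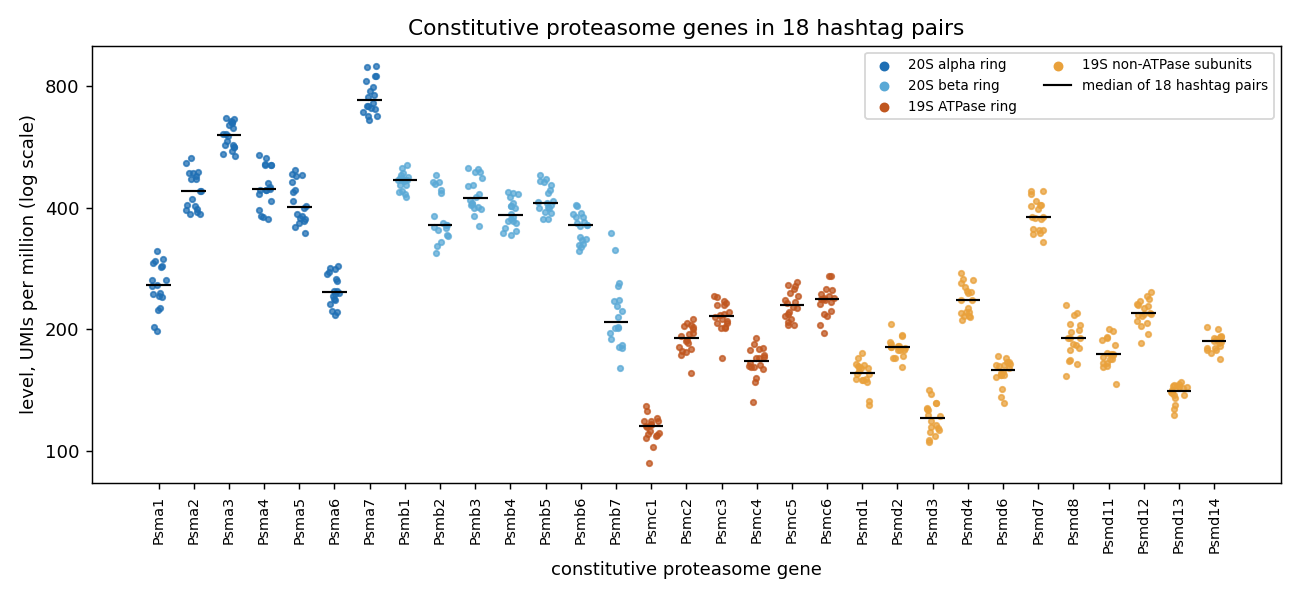
Level of each of the 31 constitutive proteasome genes (CPM, log axis) in each of 18 hashtag pairs; 1 point is 1 pair, colours are the roles and black bars the medians over pairs. Psma7 has the highest median (739 CPM) and Psmc1 (115 CPM) and Psmd3 (120 CPM) the lowest, and Psmb7 has 2 pairs over 300 CPM, at 345 and 314 CPM.

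Across hashtag pairs the constitutive genes moved within a narrow range. Their sum was lowest at 8226 CPM in HTO1+HTO3 (95% interval 8047 to 8408), had a median of 9114 CPM and was highest at 10429 CPM in HTO2+HTO8 (10370 to 10487), a ratio of 1.27. The coefficient of variation over the 18 pairs was 7.52%, against 0.702% from counting error. In the order of the sums, 14 of the 17 pairs of neighbours had overlapping counting intervals. Neighbours in a sorted order are the closest values by construction, so this count does not measure how far the hashtag pairs differ. The intervals of the lowest and the highest hashtag pair did not overlap. The share of the 20S core in the members' UMIs stayed between 62.3% and 65.6%. In sums such as these, more RNA per cell and more cells of a high state cannot be told apart.

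The roles differed in their spread over pairs. The alpha ring ranged from 2790 to 3711 CPM (coefficient of variation 9.65%) and the beta ring from 2402 to 3060 CPM (8.10%). The ATPase ring ranged from 978 to 1298 CPM (6.43%) and the non-ATPase subunits from 1940 to 2360 CPM (5.35%). In all 4 roles the highest pair was HTO2+HTO8, which also held the most cells.

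Gene by gene, the highest pair divided by the lowest had a median of 1.34 over the 31 members and ran from 1.2 (Psmb1, 425 to 510 CPM) to 2.15 (Psmb7). Only Psmb7 of the 31 reached a ratio of 2, against 24.3% of the 5715 genes of at least 20 CPM. Low genes have larger ratios from counting alone: among the 1134 genes within the members' range of levels, the share was 11.9% and the median ratio 1.38, so the members' median lay near that of genes of like level. By contrast, all 5 inducible and PA28 genes passed a ratio of 2, from 3.21 for Psme2 to 11.3 for Psmb9.

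**Figure D2:**
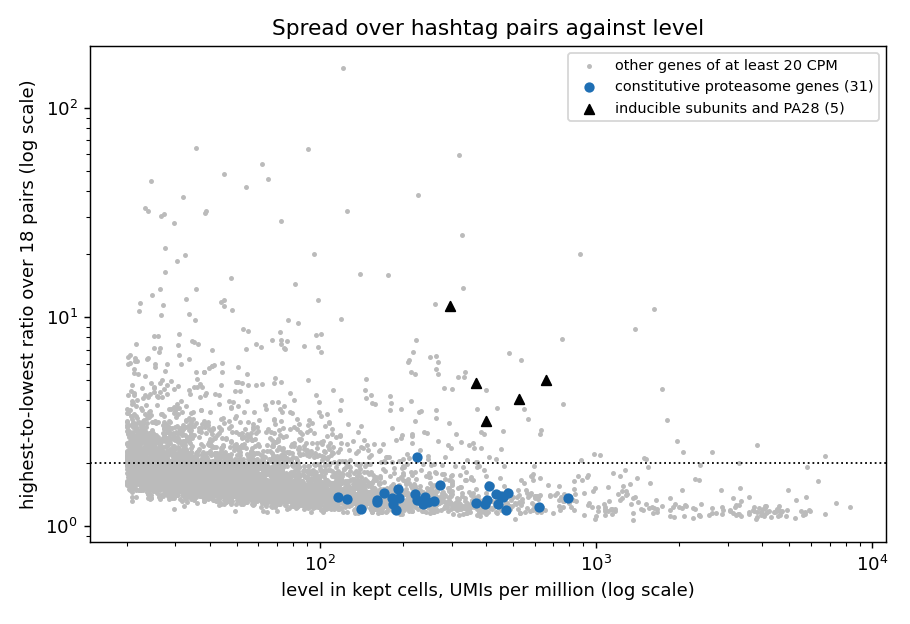
Highest of 18 hashtag pairs divided by the lowest (log axis) against the level in kept cells (CPM, log axis), 1 point per gene of at least 20 CPM, with genes at 0 in a pair not drawn and the dotted line at 2. The 31 constitutive genes (blue) lie between 1.2 and 2.15 and the 5 inducible and PA28 genes (black triangles) between 3.21 and 11.3.

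Some members ranged more widely than others. After Psmb7, the next ratios were 1.58 for Psma1 (198 CPM in the lowest pair, median 257, highest 313) and 1.56 for Psmb2 (309, 362 and 482 CPM). The lowest ratios beside Psmb1 belonged to 19S genes, with 1.2 for Psmd14 (169, 187 and 203 CPM) and 1.21 for Psmd13 (123, 141 and 148 CPM). The lid subunit Psmd8 was the widest of the cap genes at 1.5 (153, 190 and 230 CPM).

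The wide range of Psmb7 went with a few cells. Its pair levels were 160 CPM at the lowest (HTO4+HTO8), 208 CPM at the median and 345 CPM at the highest (HTO3+HTO6). By a rule set after these values were seen, 6 kept cells in 5 pairs had over 4 times the pool level with at least 40 Psmb7 UMIs. They stood at 2515, 2334, 1790, 1761, 1319 and 930 CPM, from 62 to 167 UMIs each. None of the other 30 members had such a cell, but the rule was set on Psmb7 values. Its fixed minimum of UMIs asks for a higher fold in members of lower level. No share over all genes is given, so the count does not compare Psmb7 with the others. Without the 6 cells, Psmb7 ranged from 160 to 253 CPM over the pairs, a ratio of 1.57, and no member reached 2.

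The summed level of the other 30 members in these 6 cells was 6989, 11278, 11807, 11131, 11526 and 7696 CPM, which is above the pool level of all members in 4 of them and below it in the other 2. Nadsyn1, an enzyme gene of NAD synthesis that was looked at after its values were seen, was over 200 CPM in 4 kept cells, and 3 of them were among the 6, against a pool level of 9.25 CPM. Nadsyn1 was picked among several genes that stood higher in the 6 cells, so the overlap describes these cells only. The cell with the most Psmb7 had no Nadsyn1 UMI.

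**Figure D3:**
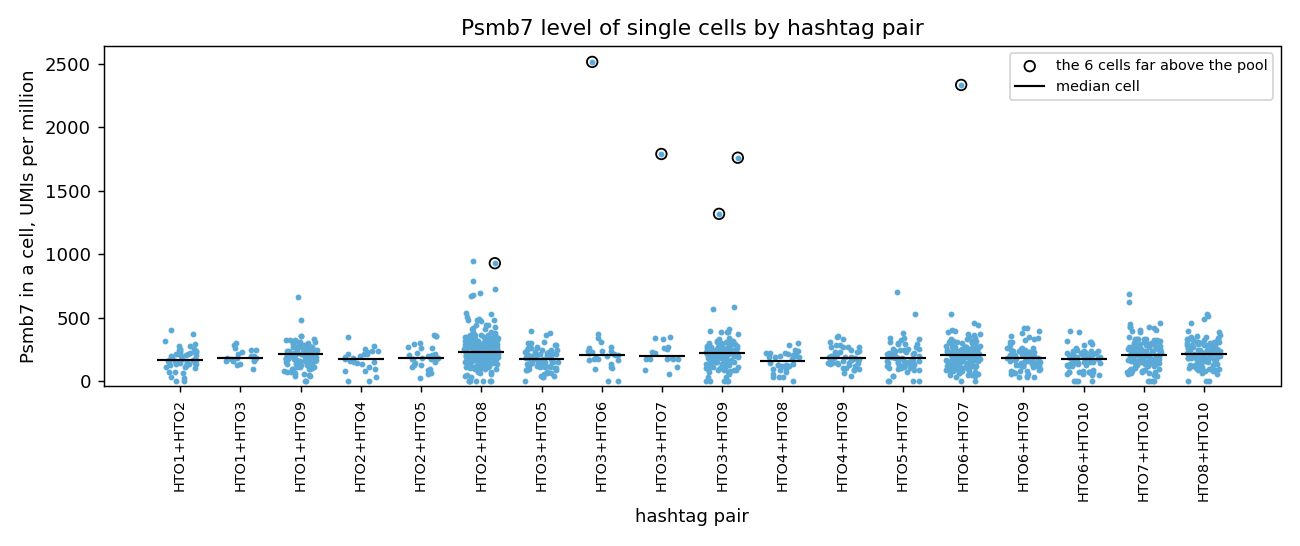
Psmb7 level of each cell (CPM) by hashtag pair; 1 blue point is 1 cell, black bars are median cells and rings mark the 6 cells over 4 times the pool level with at least 40 Psmb7 UMIs. The ringed cells lie between 930 and 2515 CPM, against a pool level of 226 CPM.

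The genes that replace the catalytic subunits varied far more than the subunits they replace. Psmb5 stood at 374 CPM in its lowest pair, 412 at the median and 481 in its highest, whereas Psmb8, its replacement, stood at 210, 295 and 1054 CPM. Psmb6 stood at 312, 363 and 405 CPM, and its replacement Psmb9 at 48.4, 83.7 and 548 CPM. Against the Psmb7 values above, Psmb10 stood at 120, 203 and 581 CPM. The inducible genes thus ranged from below to above the subunits they replace. Of Psmb5 and Psmb8 UMIs together, Psmb8 made up 33.8% in the lowest pair (95% Clopper-Pearson interval 31.5 to 36.1), 43.2% at the median and 69.5% in the highest (68.5 to 70.4). For Psmb9 with Psmb6 the shares were 13.2% (11.4 to 15), 19.2% and 58.7% (57.4 to 60.0). For Psmb10 with Psmb7 they were 34% (30.2 to 38), 50.8% and 70.6% (69.3 to 71.9). In the 11 pairs of at least 50 cells, the median shares were 65.9% for Psmb8, 52.8% for Psmb9 and 64.7% for Psmb10. The denominators hold the inducible gene itself, so these shares follow its level, and the lowest Psmb10 share belongs to HTO3+HTO6, the pair with the cell highest in Psmb7.

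**Figure D4:**
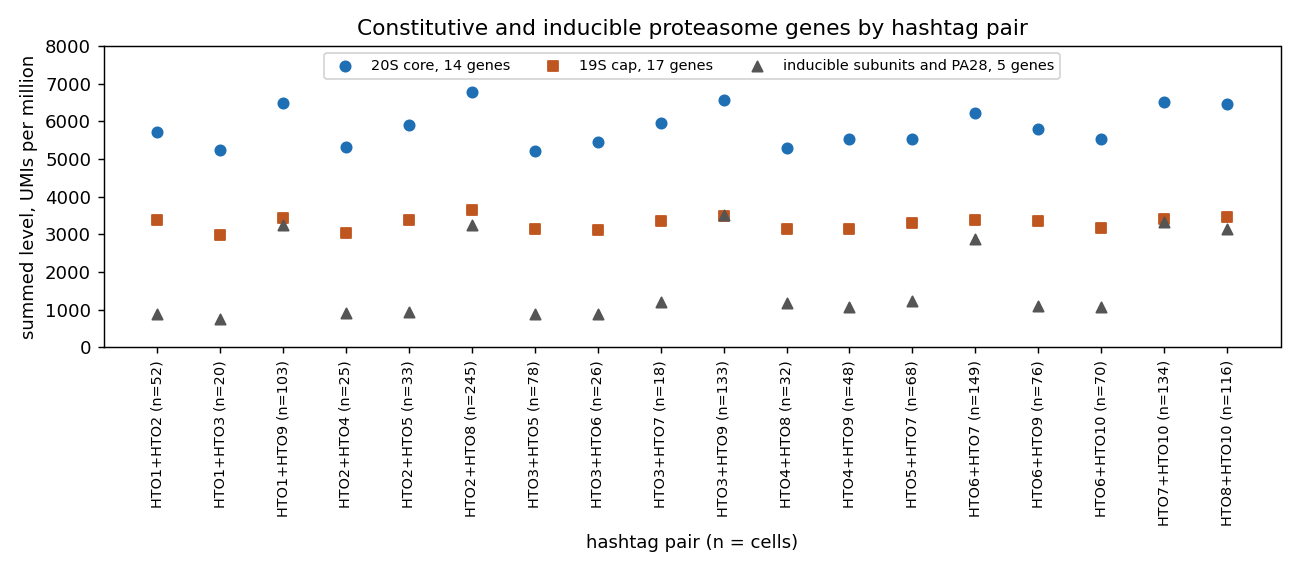
Summed level (CPM) of the 20S core, the 19S cap and the 5 inducible and PA28 genes in each of 18 hashtag pairs, ordered by tag number, with the number of cells in brackets. The inducible sum runs from 760 to 3510 CPM, the core from 5207 to 6771 CPM and the cap from 2978 to 3657 CPM.

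To see whether single cells with stronger interferon genes carried more constitutive RNA, the cells of each of the 14 pairs of at least 30 cells were split at the pair's median of a score of 22 interferon-gamma response genes, none of them a proteasome gene. The inducible and PA28 genes were higher above the median in 14 of 14 pairs, with a median ratio of 1.73. The constitutive sum had a median ratio of 0.999 (0.921 to 1.09) and was higher in 7 of 14 pairs. No member reached a median ratio of 1.2, against 13.5% of genes, and none was at or under 1/1.2, against 10.6%. With the score as its residual on log UMIs within the pair, an alternative added after seeing the data, no member reached 1.2 either, against 9.87% of genes.

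Within that near-flat sum the roles leaned apart by small amounts. The alpha ring had a ratio of 1.02 and was higher in 10 of 14 pairs, with Psma5 the highest member at 1.10 (12 of 14 pairs). The ATPase ring had a ratio of 0.959 and was higher in 2 of 14 pairs, and the non-ATPase subunits had 0.968 (5 of 14). The catalytic genes Psmb5, Psmb6 and Psmb7 together had 0.95 (5 of 14). The median of all genes in this split was 0.990. With scaling that left out mitochondrial and ribosomal protein genes, the members' ratio was 0.966 (3 of 14 pairs) beside 0.965 for the median of all genes. The alpha ring then had 1.003 (8 of 14), the ATPase ring 0.939 (1 of 14) and the non-ATPase subunits 0.940 (0 of 14). With median-of-ratios scaling these roles had 1.04 (10 of 14), 0.984 (5 of 14) and 0.981 (5 of 14). With the residual score they had 1.03 (13 of 14), 0.987 (4 of 14) and 0.981 (5 of 14). With the plain score, cells above the median had fewer UMIs, with a ratio of 0.795 in median UMIs, and more of the fibroblast list, with 1.63. The part of either in the small differences was not tested.

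Cells with more cell cycle RNA had more constitutive proteasome RNA. Split by 33 S phase genes, the members were at 9869 CPM above and 8328 CPM below the median (medians over pairs), a ratio of 1.16 that was over 1 in 14 of 14 pairs. Split by 40 G2/M genes, the levels were 10010 and 8108 CPM, with the same ratio of 1.16 in 14 of 14 pairs. Of the 31 members, 14 reached a ratio of 1.2 in the S phase split, against 32.1% of genes, and 13 in the G2/M split, against 32.3%. None was at or under 1/1.2, against 20.8% and 18.8% of genes. The counts depended on the scaling: with median-of-ratios scaling, 4 and 5 of 31 reached 1.2, a lower share than the 25.4% and 24.6% of genes. Without mitochondrial and ribosomal protein genes in the total, 9 and 9 did, against 29.9% and 29.3% of genes, which is close to the background. The median single-gene ratio was 1.2 and 1.19 over the members and 1.05 and 1.05 over all genes.

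The cap differed more between the sides of these splits than the core. In the S phase split the 19S cap had a ratio of 1.2 and the 20S core 1.12, and in the G2/M split the ratios were 1.21 and 1.14. The lid subunits Psmd13 (159 against 113 CPM, ratio 1.42) and Psmd7 (434 against 322 CPM, ratio 1.4) had the largest ratios in the S phase split, each over 1 in 14 of 14 pairs. Psmb1 (chromosome 17, 15475021 to 15499751) was the exception: its ratio was 0.892 in the S phase split and 0.889 in the G2/M split, over 1 in 1 of 14 pairs each. The inducible and PA28 genes were lower above the median, with ratios of 0.774 and 0.844.

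The other proteasome genes went in both directions. Their sum had a ratio of 1.05 in the S phase split, over 1 in 12 of 14 pairs. The deubiquitinase Uchl5 had the largest ratio of the list at 2.53, followed by Psme3 (the nuclear PA28 subunit) at 1.6, Usp14 at 1.54 and the core chaperones Psmg1 and Psmg2 at 1.53 and 1.48. The maturation factor Pomp stood at 1.17. Lower above the median were Zfand5 (0.709), the transcription factors Nfe2l2 (0.758) and Nfe2l1 (0.824), the chaperone Psmd10 (0.777) and the lid subunit Sem1 (0.872), each under 1 in 14 of 14 pairs but Psmd10, in 13 of 14. Of the 20 genes of this list at 20 CPM or more, 10 reached 1.2, against 32.1% of genes, and 4 were at or under 1/1.2, against 20.8%.

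Depth, matrix genes and the endothelial list moved with these splits. Cells above the median had 1.72 times the UMIs in the S phase split and 1.63 times in the G2/M split. The fibroblast list stood at 0.347 and 0.394 times and the endothelial list at 2.06 and 1.64 times. When each score was replaced by its residual on log UMIs, the UMI ratios were 1.25 and 1.18, and the fibroblast list stood at 0.522 and 0.572 times. The members' ratios were then 1.11 (14 of 14 pairs) and 1.08 (10 of 14 pairs). Members at 1.2 or more numbered 4 (23% of genes) and 2 (21.6% of genes). The part of the depth and of the fibroblast list that remained was not tested.

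Splits by stress genes gave like differences. In the split by 18 heat shock genes, which encode chaperones and their partners, the members had a ratio of 1.16 in 14 of 14 pairs. Of the 31 members, 17 reached 1.2, against 30.8% of genes. None was at or under 1/1.2, against 17.8% of genes. With median-of-ratios scaling 8 of 31 reached 1.2, close to the 23% of genes, and without mitochondrial and ribosomal protein genes 16 did, against 28.2%. Psmd2, Psmd7 and Psmd3 had the largest ratios at 1.4, 1.36 and 1.35, and Psmb1 was again under 1, at 0.906. With the score as its residual on log UMIs, the ratio was 1.14 in 14 of 14 pairs, and 15 of 31 members reached 1.2, against 21.4% of genes. The UMI ratio was 1.58 in the first of these splits and 1.22 in the second. The fibroblast list stood at 0.391 times in the first and 0.511 times in the second, and the endothelial list at 1.68 times in the first. Whether the cells above the median were those of the cell cycle splits was not tested.

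In the split by 20 genes of the unfolded protein response, which protects the endoplasmic reticulum (21 features, as Ddit3 has 2 gene IDs), the members' ratio was 1.16 (14 of 14 pairs). All 31 members had a median ratio over 1, as did 3515 of 5715 genes. Under the other scalings Psmb1 was at 0.993 and 0.995, and 2813 and 2885 of 5715 genes were over 1. Of the members, 3 reached 1.2, against 6.09% of genes, while none was at or under 1/1.2, against 3.81%. Those at 1.2 or more were Psmc4 (1.23), Psmd7 (1.22) and Psmb5 (1.22). This split had the smallest excess of UMIs, with a ratio of 1.22, and its core and cap ratios were 1.16 and 1.13. With the residual, the UMI ratio was 1.03 and the members' ratio 1.09 in 14 of 14 pairs, and no member reached 1.2, against 4.43% of genes. With median-of-ratios scaling 1 member reached 1.2, against 4.32% of genes, and without mitochondrial and ribosomal protein genes 0 did, against 4.04%.

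**Figure D5:**
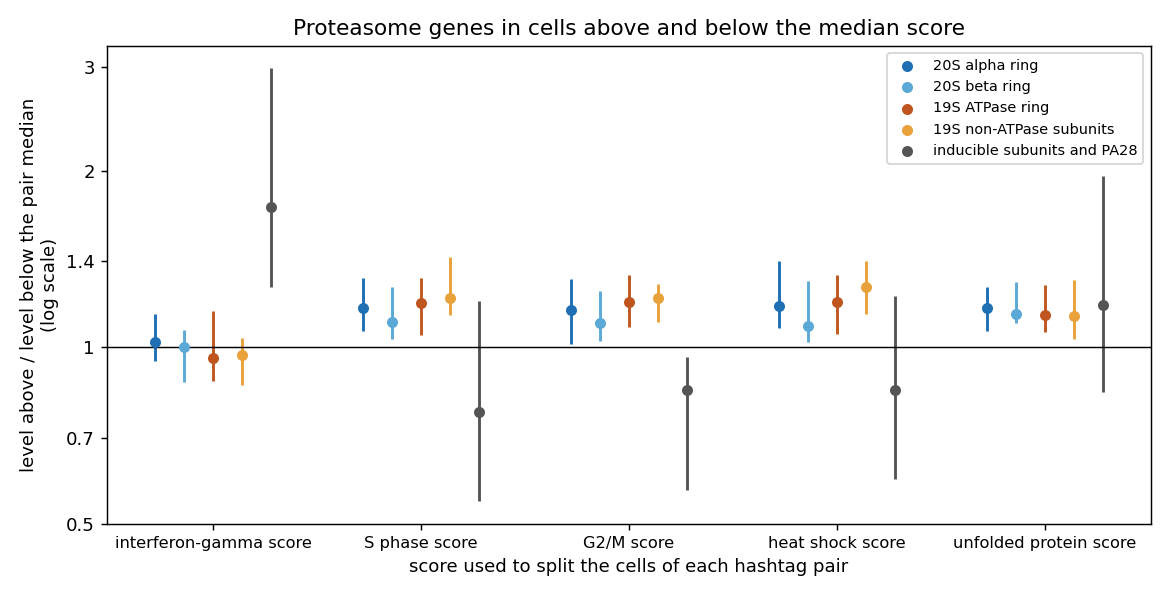
Level in cells above the median score of their hashtag pair divided by the level below it (log axis), for 5 scores; points are medians and lines the range over 14 pairs, coloured by role. In the S phase, G2/M, heat shock and unfolded protein splits the 4 constitutive roles lie over 1 in all 14 pairs, while the inducible and PA28 genes stand at 1.73 in the interferon-gamma split.

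The members also varied together from cell to cell. After each cell was thinned to 20000 UMIs, which kept 1407 cells and left out 141, the members' UMIs per cell had a 5th percentile of 117, a median of 182 and a 95th percentile of 266. The coefficient of variation was 24.3%, against 7.34% from counting. After hashtag pair means were subtracted (1302 cells), the median Pearson r between 2 members was 0.169, against 0.005 over all pairs of the 5715 genes. Of the 465 pairs of members, 463 were positive. The share of positive pairs over all genes was not counted. The 5715 genes reach down to 20 CPM, under every member, and sparse counts lower r. No background of like level was computed for r. Cells share a library and these are sparse counts, so r is a description.

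Core genes were linked more tightly than cap genes. The median r was 0.248 within the 20S core and 0.143 within the 19S cap, but core genes have more UMIs and hence less counting noise. The pair with the highest r was Psma7 with Psmb3, at 0.423. Against the score of the other members, Psma7 had the highest r (0.582), followed by Psmb3 (0.565) and Psma3 (0.557). These were the 3 highest of all 5715 genes, which were not matched for level. The lowest were Psmb1 at 0.177 and Psmd8 at 0.126, though Psmb1 had the highest level of the beta ring.

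Outside the list, the 10 genes most like the member score in r over the same cells were Txn1 (0.499), Pfn1 (0.469), Ran (0.460), Ybx1 (0.458), Ppa1 (0.450), Eif5a (0.444), Ppia (0.441), Ranbp1 (0.439), Mdh2 (0.431) and Atp5g1 (0.429). All other genes of at least 20 CPM, which were not matched for level, had a median r of 0.025. Among proteasome factors, Pomp, the maturation factor of the core, had 0.404, and the cap receptor Adrm1 had 0.285. Nfe2l1 had -0.061, and Sem1, a small lid subunit at 435 CPM, had 0.085. Of the delivery genes, Txnl1, a cap-bound thioredoxin, had 0.321 and the segregase Vcp 0.311.

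The member score followed the same programs within pairs as the splits. Its r within pairs was 0.425 with the heat shock score, 0.358 with the unfolded protein score, 0.301 with the S phase score and 0.187 with the G2/M score. With the interferon-gamma score it was 0.164 pooled over cells but -0.036 within pairs, and positive in 6 of the 16 pairs of at least 20 cells. With total UMIs before thinning it was 0.331, and with the ribosomal protein share -0.313. With the inducible and PA28 genes it was 0.171, and positive in 16 of 16 pairs. Within pairs, each catalytic gene had little relation to its own replacement: r was 0.003 for Psmb5 and Psmb8, 0.114 for Psmb6 and Psmb9, and 0.037 for Psmb7 and Psmb10.

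Tissue-restricted subunits were at or near 0. Psma8, the alpha subunit of testis, had no UMI in the kept cells, which allows up to 0.0414 CPM (3 counts over the pool), and Psmb11, the thymus beta subunit, had 2 UMIs. The other proteasome genes lay mostly under the members: Pomp at 419 CPM and Sem1 at 435 CPM were the highest. Usp14, the 19S-bound deubiquitinase, stood at 164 CPM and Zfand5 at 161 CPM. Nfe2l2 was at 152 CPM, Akirin2, which brings proteasomes into the nucleus, at 101 CPM, Adrm1 at 88.9 CPM and Uchl5 at 78.7 CPM. The chaperones Psmg1 to Psmg4 and Psmd5, Psmd9 and Psmd10 ranged from 46.9 to 73.1 CPM. Psme3 stood at 42.3 CPM, Psme4 at 65.3 CPM, the inhibitor Psmf1 at 22 CPM, Nfe2l1 at 59.2 CPM, and the enzymes that activate it, Ddi2 and Ngly1, at 28.6 and 16.6 CPM. Paaf1 was not matched in the feature list.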

How the data were processed

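The authors deposited 1 table of raw counts (UMIs) for genes and hashtags, made with Cell Ranger 6.1.2 per the file headers. Cell Ranger 2.1.1 and GRCm38 stand in the submitters' processing notes, and which version applies was not resolved. How the barcodes were filtered before deposit is not stated. Levels are summed counts per 1000000 gene UMIs (CPM) with exact Poisson intervals at 95%. A hashtag was called above a cutoff per tag by Otsu's method on log counts (scikit-image 0.26.0). A negative binomial cutoff was tried first, in several versions, and dropped because its cutoffs were unstable and low; this was decided on the tag counts. Pairs needed 15 cells, splits 30. A score is the mean of log values at 10000 UMIs per cell, and correlations used cells thinned to 20000 UMIs. Doublets within 1 hashtag pair are not seen. Simulated Poisson counts, with a cell state drawn at random and not linked to depth, were split by the interferon-gamma score. Of 5717 genes, 100 made with a ratio of 1.5 and 100 with its inverse were called in 100% of cases. Of the unchanged genes, 0.2% were called. No ratio nearer to the limit of 1.2 was made, so these rates do not describe the measured splits. Named genes are all members, the inducible, PA28 and other proteasome genes, and the 10 genes most like the member score. The members and lists were chosen with earlier results of these data known. The rule for Psmb7 cells, the residual split, the motifs and the choice of Nadsyn1 came after values were seen. Alternatives were other UMI and mitochondrial limits, scalings, hashtag calls, pair sizes, thinning depth and rank correlation. Analysis used numpy 2.4.6, scipy 1.17.1 and pandas 2.3.3.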

Additional observations from a re-analysis of the deposited data

How the results depend on the processing

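No paired analysis was possible because the 2 libraries are the RNA and the hashtags of 1 pool, and no groups were compared. A UMI minimum of 10000 and a mitochondrial limit of 10% moved none of the 27 summary results and 31 gene levels beyond its own error. Keeping barcodes with 3 or more hashtags was run for 11 of the summary results and the 31 levels, and calling hashtags by dominance for 21 summary results on pairs, and none of these moved. Scaling without mitochondrial and ribosomal protein genes raised all levels, by construction: the members summed to 13169 CPM, the alpha ring to 4614, the beta ring to 3842, the ATPase ring to 1642 and the non-ATPase subunits to 3071 CPM, and the highest pair was 1.22 times the lowest. With median-of-ratios scaling, the members' ratio was 1.09 in the S phase split and 1.08 in the G2/M split. Over 1 were 28 and 27 of 31 members, beside 2696 and 2690 of 5715 genes. The median of all genes was then 0.980 in both, against 1.05, and 0.981 in the heat shock split, against 1.05. Members at 1.2 or more numbered 14, 13, 17 and 3 in the S phase, G2/M, heat shock and unfolded protein splits (32.1, 32.3, 30.8 and 6.09% of genes). They numbered 4, 5, 8 and 1 with this scaling (25.4, 24.6, 23 and 4.32%), 9, 9, 16 and 0 without mitochondrial and ribosomal protein genes (29.9, 29.3, 28.2 and 4.04%), and 4, 2, 15 and 0 with residual scores (23, 21.6, 21.4 and 4.43%). With pairs of at least 50 cells (11 pairs), 0 members reached a ratio of 2, and the median shares were 65.9% for Psmb8, 52.8% for Psmb9 and 64.7% for Psmb10 over these fewer pairs. Thinning to 10000 UMIs gave a median r between members of 0.098, and Spearman's rho with the G2/M score was 0.266; the cause was not tested. With scores as residuals on log UMIs, 16 of 31 members were over 1 in the interferon-gamma split, beside 2770 of 5715 genes. With the plain score, 9 members were, beside 2700 of 5715 genes. The ratios with residual scores were 1.08 in the G2/M and 1.09 in the unfolded protein split. Without the 6 cells high in Psmb7, 0 members reached 2 and Psmb7 stood at 217 CPM. Depth limits single-gene values most in the smallest pairs, the least of which held 18 cells.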

Other observations

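The hashtag pairs have no stated condition, and the summed level of the inducible and PA28 genes fell into separate sets of values among them: no pair lay between 1238 and 2883 CPM. The values of each pair are given by tag number, first the inducible and PA28 sum, then the constitutive sum, then the ribosomal protein share of UMIs.

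They were 896 CPM, 9092 CPM and 25.9% in HTO1+HTO2, 760 CPM, 8226 CPM and 26.4% in HTO1+HTO3, and 3250 CPM, 9916 CPM and 24.3% in HTO1+HTO9. Next came 911 CPM, 8336 CPM and 27.7% in HTO2+HTO4, 929 CPM, 9284 CPM and 25.3% in HTO2+HTO5, and 3261 CPM, 10429 CPM and 24.3% in HTO2+HTO8. The values were 877 CPM, 8352 CPM and 26.5% in HTO3+HTO5, 898 CPM, 8569 CPM and 25.4% in HTO3+HTO6, and 1217 CPM, 9312 CPM and 26.6% in HTO3+HTO7. Then followed 3510 CPM, 10074 CPM and 24.7% in HTO3+HTO9, 1184 CPM, 8434 CPM and 26.3% in HTO4+HTO8, and 1082 CPM, 8664 CPM and 27.2% in HTO4+HTO9. Further values were 1238 CPM, 8838 CPM and 26.3% in HTO5+HTO7, 2883 CPM, 9593 CPM and 25.1% in HTO6+HTO7, and 1103 CPM, 9136 CPM and 26.2% in HTO6+HTO9. The last were 1070 CPM, 8702 CPM and 26.6% in HTO6+HTO10, 3333 CPM, 9934 CPM and 24.4% in HTO7+HTO10, and 3136 CPM, 9925 CPM and 24.7% in HTO8+HTO10. The part of the ribosomal share in the constitutive values was not tested.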
